A study of Mus musculus with 7 samples.

Results

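Myosin light chains and the kinases that phosphorylate them were followed in differentiating C2C12 cells depleted of lnc-SMaRT, a long non-coding RNA of muscle. The set was chosen by gene symbol, not by any measured value, and holds 10 of the 11642 rows of the deposited expression table. It comprised Myl1, Myl4, Mylpf, Myl6, Myl6b, Myl9, Myl12a, Myl12b, Mylk and Mylk2. C2C12 is a mouse myoblast line that forms multinucleated myotubes when serum is withdrawn. All RNA-seq samples came from this line on day 2 of differentiation. A non-targeting scramble siRNA (si-SCR) was given to 2 samples and siRNA #1 against lnc-SMaRT (si-SMaRT) to another 2, each at 30 nM. The study describes the pairs as independent populations of cells. Depletion was transient, rested on a single siRNA sequence, and was measured in bulk RNA. In separate cells, RNA was pulled down with probe set #1 against lnc-SMaRT or with probes against LacZ, which has no target in mouse cells, and each pull-down and the input were sequenced as 1 library.

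Each myosin heavy chain binds an essential and a regulatory light chain at its neck, the lever that turns ATP hydrolysis into movement. Fast skeletal muscle uses the essential chains encoded by Myl1 and the regulatory chain encoded by Mylpf, and embryonic muscle adds the essential chain Myl4. Non-muscle and smooth muscle myosins use Myl6 or Myl6b as essential chains and Myl9, Myl12a or Myl12b as regulatory chains. In those myosins, phosphorylation of the regulatory chain by calmodulin-dependent light chain kinase turns the motor on, whereas in striated muscle the skeletal kinase Mylk2 tunes the force. Undifferentiated myoblasts rely on the non-muscle chains, and the sarcomeric chains are switched on as the cells differentiate. Myl1, Myl4, Mylpf and Mylk2 are called sarcomeric here, and the other 6 genes non-sarcomeric. These labels only group the genes and do not exclude other uses. Over all columns of a global alignment, gaps included, the coding sequence of Myl6b was 65.6% identical to that of Myl4, 58.4% to that of Myl6 and 52.4% to that of Myl1. The coding sequences of Myl6b, Myl4, Myl6 and Myl1 had 621, 579, 453 and 450 bases. Gaps therefore lower the values for Myl6 and Myl1 most, and the order does not rank how alike the paired bases are.

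Expression was deposited as RPKM, the number of reads scaled by the length of the gene model and the size of the library. Lnc-SMaRT itself had 19.1 and 15.9 RPKM in si-SCR. After depletion it had 2.88 and 3.65 RPKM, a log2 fold change of -2.39 (SE 0.28, adjusted p = 0.000882, limma with Benjamini-Hochberg adjustment over 11086 genes). The effective library sizes behind the values were 11291255 to 14312935 reads. The si-SMaRT pair differed more than the si-SCR pair, with median absolute log2 differences of 0.418 and 0.185 over the 11086 genes. The difference within the si-SMaRT pair followed the GC content of the genes (Spearman's correlation of -0.85 over 10478 genes, a description only, since genes are not replicates). The members' transcripts had GC contents of 45.7% to 57.2%. Fits in which each sample's dependence on GC content had been removed are therefore given as well.

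Both sarcomeric light chains of the fast fibre carried a peak in the lnc-SMaRT pull-down, and no light chain or kinase carried one in the LacZ pull-down. The deposited lists held 345 lnc-SMaRT peaks and 336 LacZ peaks, in 200-base bins or multiples of them. The peak on Myl1 lay on the minus strand at chr1:66930001-66930200 (GRCm38). Of its bases, 15 were the end of coding exon 3 of transcript ENSMUST00000119429 (66930186 to 66930329) and 185 lay in the following intron. The peak on Mylpf lay on the plus strand at chr7:127213201-127213400, with 40 bases of coding exon 3 of ENSMUST00000032910 (127213165 to 127213240) and 160 bases of intron. The sequences of these called bins are shown 5′ to 3′ along the transcript, with exon bases in capitals.

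Myl1 peak: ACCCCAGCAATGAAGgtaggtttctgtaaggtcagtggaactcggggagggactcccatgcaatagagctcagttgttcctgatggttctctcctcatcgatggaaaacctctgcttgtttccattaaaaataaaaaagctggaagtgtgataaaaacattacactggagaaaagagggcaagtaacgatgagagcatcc

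Mylpf peak: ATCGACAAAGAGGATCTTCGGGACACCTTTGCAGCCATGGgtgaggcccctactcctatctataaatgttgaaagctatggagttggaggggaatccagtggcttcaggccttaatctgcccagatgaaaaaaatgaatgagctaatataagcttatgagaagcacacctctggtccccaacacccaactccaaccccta

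Each bin therefore spanned the boundary from exon 3 into intron 3, with most of its length intronic. The authors' p-values were 0.00563 for Myl1 and 0.00798 for Mylpf, ranks 300 and 327 of 345 from the lowest p. When a peak had to lie over at least 50% on an exon, or to have a p under 0.001, 0 of the peaks remained on members. The peaks were 44.5% and 47.5% GC. The longest stretch that could pair without a gap with a probe of set #1 was 8 bases in the Myl1 peak and 6 in the Mylpf peak. It had a median of 7 bases, with a range of 5 to 20, in the 107 other 200-base peaks outside Ttn, the titin gene.

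The share of rows with a peak was highest among abundant RNAs, and both light chains with a peak were abundant. An lnc-SMaRT peak lay on an exon of 66 of the 11642 rows (0.567%), of 7.6% of the 500 rows with the highest RPKM in si-SCR and of 28.0% of the top 50. The LacZ list showed the same order, with 0.335%, 1.8% and 8.0%. Mylpf was rank 4 of all rows and Myl1 rank 63. Myl6, at rank 34, had no peak in either list. With 1 library per pull-down there was no replicate check, and the part of RNA level in the 2 peaks was not tested.

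**Figure D1:**
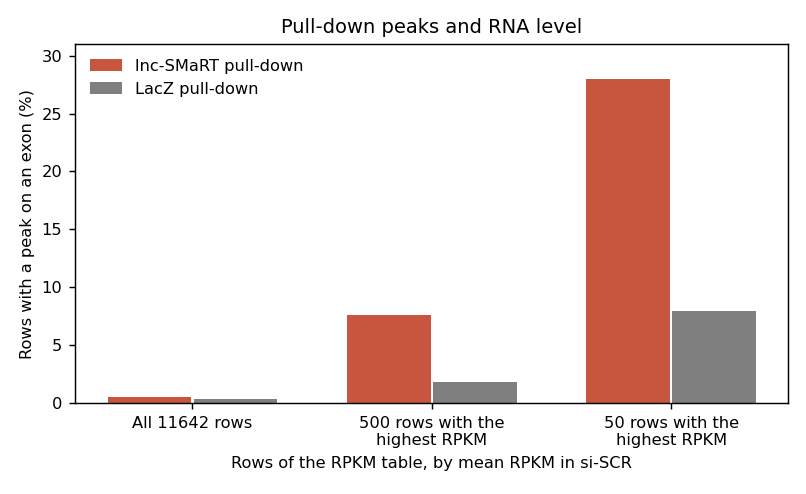
Share of rows of the RPKM table with a pull-down peak on an exon (y axis, percent, from 0), for all 11642 rows, the 500 and the 50 rows with the highest mean RPKM in si-SCR (x axis). Red bars stand for the lnc-SMaRT list and grey bars for the LacZ list; both shares are highest in the top 50 rows, at 28.0% and 8.0%.

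In control cells the regulatory chain of fast muscle, Mylpf, was by far the most abundant member, and both kinases were the least. The order of mean RPKM in si-SCR was Mylpf, Myl6, Myl1, Myl9, Myl4, Myl12a, Myl6b, Myl12b, Mylk2 and Mylk. The 2 control values of each gene did not overlap those of its neighbour anywhere in this order. In si-SMaRT, Myl9 moved above Myl1 and Myl12a above Myl4. There the values of Myl1 overlapped those of Myl9, and those of Myl6b overlapped those of Myl12b. Levels between genes depend on the length the authors counted over. This length, read back from the RPKM steps, was 4637 bases for Myl4 against 943 bases of its principal transcript in GENCODE M21. For Myl1 it was 2074 against 803 bases. Per kilobase of principal transcript, the control order began with Mylpf (6919), Myl1 (2091), Myl4 (1615) and Myl6 (1288), so Myl4 and Myl1 stood above Myl6. Fold changes of a gene do not depend on this length.

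**Figure D2:**
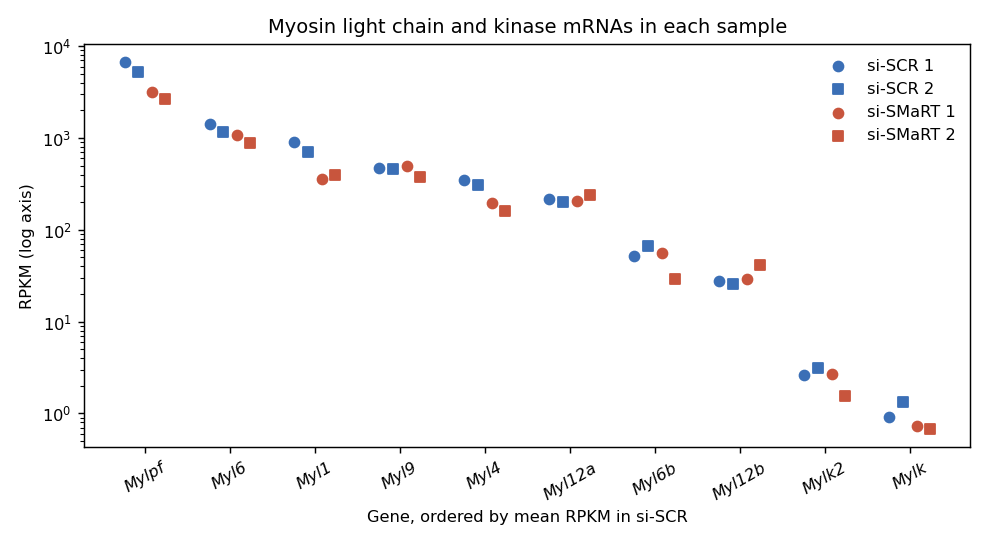
RPKM (log axis) of the 10 genes in each of the 4 samples, ordered along the x axis by their mean in si-SCR (blue, si-SCR; red, si-SMaRT; circles, replicate 1; squares, replicate 2). For Mylpf, Myl6, Myl1, Myl4 and Mylk both red points lie below both blue points. For Myl12b both lie above, and the points of Myl9, Myl12a, Myl6b and Mylk2 overlap.

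All 3 sarcomeric light chains were lower in both si-SMaRT samples than in both si-SCR samples, at 46.3% to 53.8% of the control mean. In limma, none of them passed the threshold of 0.05 after adjustment over all genes. With voom, which called 0.929% of all genes, Myl1 passed. With the GC trend removed, which called 5.03% of 10478 genes, Myl1 and Myl4 passed. None passed when samples of the same replicate number were paired, with or without the GC trend removed. Mylpf, the fast regulatory chain, had 6687 and 5289.9 RPKM in si-SCR and 3180.2 and 2650.4 RPKM in si-SMaRT. The groups did not overlap, and the si-SMaRT mean was 48.7% of the control mean. The log2 fold change was -1.03 (95% confidence interval -1.72 to -0.34, unadjusted p = 0.00571, adjusted p = 0.242, limma).

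Myl1, which gives the fast essential chains by alternative starts, had 906 and 713 RPKM in si-SCR and 357 and 393 RPKM in si-SMaRT. At 46.3% of the control mean, it had the lowest percentage of the 10 members. Its log2 fold change was -1.10 (95% confidence interval -1.70 to -0.50, unadjusted p = 0.00126, adjusted p = 0.117, limma).

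Myl4, the essential chain of embryonic and atrial muscle, had 351 and 306 RPKM in si-SCR and 194 and 159 RPKM in si-SMaRT. The si-SMaRT mean was 53.8% of the control mean, and the groups were again apart. The log2 fold change was -0.90 (95% confidence interval -1.47 to -0.32, unadjusted p = 0.0045, adjusted p = 0.225, limma). Myl1 and Myl4 together, the essential chains, were 0.188 and 0.193 of Mylpf in si-SCR and 0.173 and 0.208 in si-SMaRT. This ratio of essential to regulatory sarcomeric chains overlapped between the groups. Its level depends on the lengths counted over. These were 2.58 times the principal transcript for Myl1 and 4.92 times for Myl4, but 1.16 times for Mylpf.

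The log2 fold changes of the non-sarcomeric chains lay between -0.54 and 0.38. Myl6, the common essential chain of smooth and non-muscle myosin, had 1425 and 1152 RPKM in si-SCR and 1078 and 885 RPKM in si-SMaRT. Both si-SMaRT values were lower, and the log2 fold change was -0.39 (95% confidence interval -1.02 to 0.24, adjusted p = 0.772, limma). It was -0.55 without the second si-SCR sample and -0.24 without the first. Myl6b, the other essential chain called non-sarcomeric here, had 51.5 and 66.4 RPKM in si-SCR and 55.4 and 29.3 RPKM in si-SMaRT. Its groups overlapped, and only the second si-SMaRT sample was low. Its log2 fold change of -0.54 was -0.99 without the first si-SMaRT sample and -0.077 without the second.

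Myl9, the regulatory chain of smooth muscle, had 473 and 459.6 RPKM in si-SCR and 495 and 373 RPKM in si-SMaRT. One si-SMaRT value was the highest and the other the lowest of the 4. Its log2 fold change was -0.12 (95% confidence interval -0.72 to 0.48, adjusted p = 0.942, limma), and it was 0.053 with the GC trend removed and 0.14 after quantile normalization, so it had no fixed sign. Myl12a, a regulatory chain of non-muscle myosin, had 218 and 204 RPKM in si-SCR and 206 and 240.2 RPKM in si-SMaRT, with overlapping groups and a log2 fold change of 0.079, which was -0.032 without the second si-SMaRT sample.

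Myl12b, its close paralogue, was the only member with both si-SMaRT values above both controls. It had 27.6 and 25.4 RPKM in si-SCR and 28.8 and 41.2 RPKM in si-SMaRT, and its log2 fold change was 0.38 (95% confidence interval -0.20 to 0.95, adjusted p = 0.753, limma). It was 0.63 without the first si-SMaRT sample and 0.12 without the second. The coding sequences of Myl12a and Myl12b were 96.5% identical, against 85.7% and 86.4% for Myl9 with each, and 63.0% to 63.7% for Mylpf with each of these 3 regulatory chains. Of the 100-base stretches in the principal transcript of Myl12a, 24.5% also occurred in a transcript that GENCODE M21 assigns to Myl12b. Their loci lie side by side on chromosome 17 (Myl12b from 70973133 to 70990890, Myl12a from 70993656 to 71002878, both on the minus strand), and the annotation has another Myl12b model that runs into Myl12a (70974119 to 71002208). The split of reads between these 2 genes is therefore uncertain. No other member shared a 100-base stretch with another member.

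Both kinases were weakly expressed. Mylk, the smooth and non-muscle kinase, had 0.918 and 1.32 RPKM in si-SCR and 0.724 and 0.674 RPKM in si-SMaRT, with a log2 fold change of -0.59 (95% confidence interval -1.31 to 0.13, adjusted p = 0.641, limma). Its values rested on 83 to 190 reads per sample, and its groups did not overlap. The log2 fold change was -0.83 without the first si-SCR sample and -0.35 without the second. Mylk2, the skeletal muscle kinase, had 2.65 and 3.14 RPKM in si-SCR and 2.67 and 1.56 RPKM in si-SMaRT, with a log2 fold change of -0.48 (95% confidence interval -1.16 to 0.20, adjusted p = 0.722, limma). It rested on 66 to 131 reads, for which counting error alone was 8.74% to 12.3% of a value, and its groups overlapped. Its log2 fold change was -0.84 without the first si-SMaRT sample and -0.11 without the second. Mylk2 exceeded Mylk in every sample, by 2.32 to 3.69 times, and this ratio overlapped between the groups.

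Over the set, 0 of the 10 members passed the adjusted threshold in limma, against 56 of 11086 genes tested (0.505%, with 0.18% higher and 0.325% lower). All 10 had passed the filter on low values. At an unadjusted p under 0.05 there were 3 members, all sarcomeric light chains and all lower, against 9.09% of all genes (5.6% lower and 3.49% higher). The groups were apart in 5 members that were lower and 1 that was higher, against 40.7% of all genes (20.4% lower and 20.2% higher). The log2 fold change was below 0 in 8 of 10 members and in 47.7% of all genes. Its median was -0.97 over the 4 sarcomeric members, -0.26 over the 6 non-sarcomeric members and 0.020 over all genes.

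The number of members called depended on how the spread between samples was modelled. With voom on the reads recovered from the RPKM steps, which called 0.929% of all genes, Myl1 was called. With the GC trend removed, which called 5.03% of 10478 genes, Myl1 and Myl4 were called. When si-SCR 1 was paired with si-SMaRT 2 and si-SCR 2 with si-SMaRT 1, a pairing chosen after the values were seen, 4.39% of all genes were called and 3 members, Myl1, Myl4 and Mylpf. Replicate differences of the groups had a correlation of -0.36 across genes, so crossing the pairs lowers the residual spread of many genes. The calls of this pairing are therefore no separate evidence. Without the first si-SMaRT sample, where 26.2% of all genes were called, 5 members were called, namely Myl1, Myl4, Myl6b and Mylk2, all lower, and Myl12b, which was higher. Without the second, where 8.49% of all genes were called, Myl1 and Myl4 were called. The log2 fold changes of Myl1, Myl4 and Mylpf were below 0 under all 15 alternatives, which include these, and lay between -1.27 and -0.67. Filters, the prior trend and replicate blocks cannot change the estimate itself. With groups apart, leaving out a sample cannot change its sign. The shared sign is therefore in large part fixed by the values already given.

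**Figure D3:**
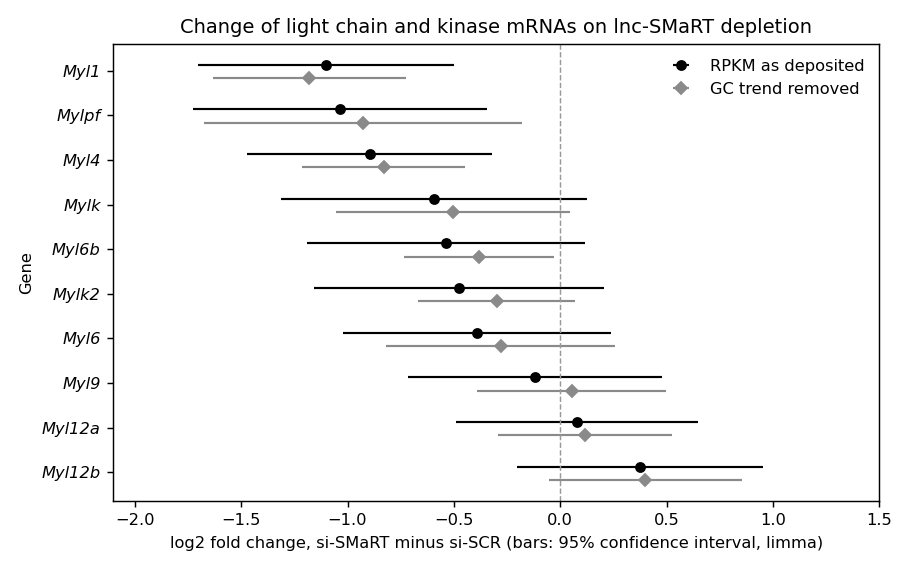
Log2 fold change of each gene, si-SMaRT minus si-SCR (x axis, log2 units), with 95% confidence intervals from limma; black circles are from the deposited RPKM and grey diamonds have the GC trend removed. The intervals of Myl1, Mylpf and Myl4 lie below 0 in both analyses, and those of Mylk, Mylk2, Myl6, Myl9, Myl12a and Myl12b include 0 in both; the interval of Myl6b lies below 0 only with the GC trend removed.

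The composition of the light chain RNA, which follows from the levels given above, differed between the groups. The RPKM summed over the sarcomeric light chains was 7944 and 6308 in si-SCR and 3732 and 3203 in si-SMaRT. Over the non-sarcomeric light chains it was 2195 and 1907 in si-SCR and 1863 and 1568 in si-SMaRT. Of the regulatory pool, Mylpf made up 90.3% and 88.5% in si-SCR and 81.3% and 80.2% in si-SMaRT. The share of Myl9 was 7.04% ± 0.92 (SD over the 2 si-SCR samples) in controls and 12.0% ± 0.98 (SD over the 2 si-SMaRT samples), and that of Myl12a was 3.17% ± 0.33 and 6.27% ± 1.42. The mean RPKM in si-SMaRT was 93.0% of the control mean for Myl9 and 105.9% for Myl12a, both with overlapping groups. That of Mylpf was 48.7%. The ratio of Mylpf to Myl9, striated to smooth muscle regulatory chain, was 14.1 and 11.5 in si-SCR and 6.43 and 7.11 in si-SMaRT.

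Of the essential pool, Myl6 made up 52.1% and 51.5% in si-SCR and 64.0% and 60.3% in si-SMaRT. Its mean RPKM in si-SMaRT was 76.1% of the control mean, so the larger share does not stand for a higher level. The share of Myl1 was 33.2% and 31.9% in si-SCR and 21.2% and 26.8% in si-SMaRT, and that of Myl4 was 12.8% and 13.7% against 11.5% and 10.9%. The share of Myl6b overlapped between the groups, and that of every other chain did not. These shares were not tested and are given as values. An exact permutation test of 2 against 2 samples cannot give a p below 0.333. The shares were again apart, in the same directions, after quantile normalization and with the GC trend removed. Per kilobase of principal transcript, the mean shares of the essential pool in si-SCR and si-SMaRT were 25.5% and 34.2% for Myl6, 41.3% and 34.0% for Myl1, and 32.0% and 30.3% for Myl4, whose groups then overlapped. On that scale Myl1, not Myl6, had the largest share in controls. Mylpf had 89.0% and 79.9% of the regulatory pool. In bulk RNA, fewer cells that make a chain and less RNA per cell cannot be told apart.

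**Figure D4:**
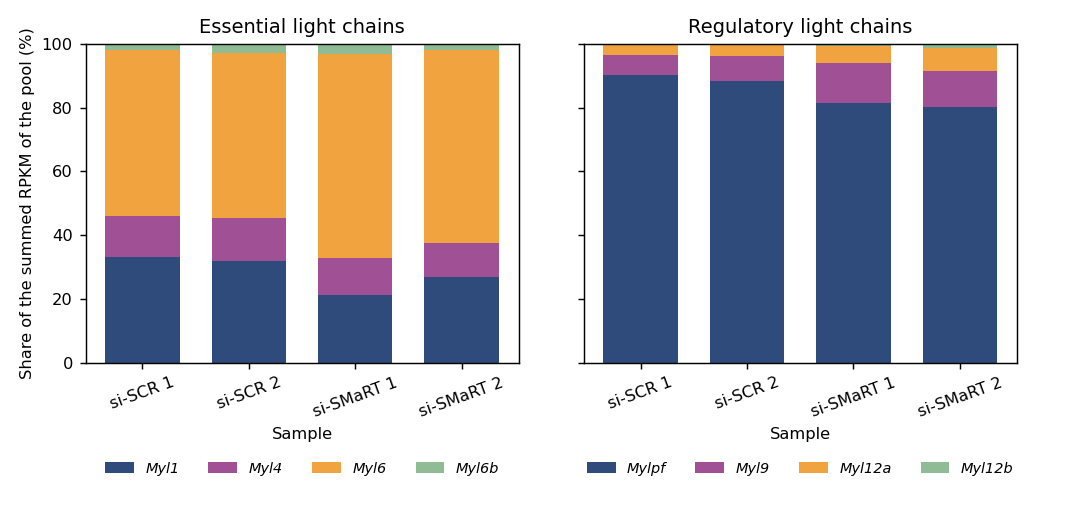
Share of each gene in the summed RPKM of the essential (left) and the regulatory (right) light chains in each of the 4 samples (stacked bars from 0 to 100%). The Mylpf segment covers 88.5% to 90.3% in si-SCR and 80.2% to 81.3% in si-SMaRT, and the Myl6 segment covers 51.5% to 52.1% in si-SCR and 60.3% to 64.0% in si-SMaRT.

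The identity of the cells was read from marker lists. The differentiating myoblast list (Myod1, Myog, Mef2c, Des, Ckm, Acta1, Actc1 and Tnnt3) was expressed in all samples, with sums of 9205 and 9537 RPKM in si-SCR and 6611 and 4473 RPKM in si-SMaRT. Of its 8 genes, 0 were called by limma and 1, Ckm, muscle creatine kinase, by voom, 4 were lower at an unadjusted p under 0.05 in limma (5.6% of all genes) and 7 were lower with groups apart (20.4% of all genes), with a median log2 fold change of -0.75. Of the 7 of 8 undifferentiated myoblast markers with a row, Id3, an inhibitor of myogenic factors (1.60, adjusted p = 0.0232), and Ccnd1, cyclin D1 (1.36, adjusted p = 0.0356), rose in limma. The log2 fold change was below 0 for Myf5, Cd34 and Id1 and above 0 for the other 4, Hes1 and Sdc4 among them, and the median was 0.30. In 4 of the 7, both si-SMaRT values were above both controls (20.2% of all genes). Sdc4, a syndecan, took the largest part of the list sums, with 69.4 and 90.4 RPKM in si-SCR and 119 and 111 RPKM in si-SMaRT. The list sums were 133 and 148 RPKM in si-SCR and 192 and 194 RPKM in si-SMaRT, and Pax7 had no row. The smooth muscle markers, led by Acta2 and Tagln, had sums of 2823 to 2897 RPKM in si-SCR and 2248 to 2666 RPKM in si-SMaRT. Myh11 and Myocd had no row. Of the other 4, 0 were called by limma or voom and 0 had an unadjusted p under 0.05 in limma. All 4 had log2 fold changes below 0 (47.7% of all genes), with a median of -0.24. Of these, 3 were lower with groups apart (20.4% of all genes). Of the cardiac markers, Myl7, Nppa and Tnni3 had no row and Myh6 was at 0.371 to 0.746 RPKM. Thus 7 of the 8 differentiation markers and 3 of 4 smooth muscle markers were lower in both si-SMaRT samples, like the sarcomeric light chains. The part of the state of differentiation in the light chain values was not tested.

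The genes with the most similar profile over the 4 samples were sought among 4671 genes whose mean RPKM was 10 or more. The measure was the Euclidean distance between centred log2 values. For Mylpf these were Rpp21, a subunit of the tRNA-processing RNase P (distance 0.127), Cav3, the muscle caveolin (0.132), and Tnni2, the fast skeletal troponin I (0.171). For Myl9 these were Nudc (0.029), Hmox1 (0.039) and Dhrs4 (0.042), each with overlapping groups.

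In the same limma fit, 0 genes of the 4 lists of related genes passed the threshold. Among regulators of myosin phosphorylation (among them calmodulins, other kinases, and myosin phosphatase with its inhibitors), 23 of 25 were tested. By limma 0 were called and by voom 0, and 0 had an unadjusted p under 0.05 in limma. Their log2 fold changes ran from -0.71 (Dapk3) to 0.42 (Cdc42bpb) with a median of 0.082. With the GC trend removed, 1 of them, Cdc42bpb, was called, and was higher in si-SMaRT. The most abundant, Ppp1r14b, a phosphatase inhibitor, had 354 and 328 RPKM in si-SCR and 345 and 248 RPKM in si-SMaRT. Ppp1ca, a catalytic subunit of the phosphatase, had 206 and 221 RPKM in si-SCR and 212 and 155 RPKM in si-SMaRT, again with overlap.

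The sarcomeric heavy chains, the partners of the light chains, gave values of both signs. Of 9 genes, 8 were tested and 0 were called by limma, and likewise 0 by voom. At an unadjusted p under 0.05, Myh3, the embryonic heavy chain (log2 fold change -0.65), and Myh7b (-1.07) were lower and Myh8, the perinatal heavy chain (0.60), was higher. Myh3, the most abundant, had 1161 and 1259.8 RPKM in si-SCR and 831 and 714 RPKM in si-SMaRT. Myh1, a fast heavy chain and the next in abundance, had 119 and 160.1 RPKM in si-SCR and 145 and 121 RPKM in si-SMaRT, with overlapping groups. The median log2 fold change over the 8 was -0.080. Of the non-muscle heavy chains, Myh9 (0.43) and Myh10 (0.35) had positive log2 fold changes, of which 0 passed the threshold by limma or voom and 0 had an unadjusted p under 0.05. The ventricular and atrial chains Myl2, Myl3 and Myl7, and Myl10, had no row, and the kinases Mylk3 and Mylk4 were below the mean RPKM of 0.5 needed for testing.

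The promoters of the fast chains Mylpf and Myl1 and, beside them, of the smooth muscle chain Myl9 were read from RefSeq (GRCm38.p6), as the 250 bases before the start of the transcript. Of the 10 members, 9 had an entry and Mylk2 had none. The only Myl1 entry lay near the upstream end of the gene (66924295 to 66945404, minus strand), so promoters of other starts of Myl1 were not searched. Shown 5′ to 3′ in the direction of transcription, capitals mark an E-box (CANNTG, the motif that myogenic factors such as MyoD bind) in Mylpf and Myl1 and a CArG box, the motif of serum response factor, in Myl9.

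Mylpf promoter, chr7:127211358-127211607, plus strand: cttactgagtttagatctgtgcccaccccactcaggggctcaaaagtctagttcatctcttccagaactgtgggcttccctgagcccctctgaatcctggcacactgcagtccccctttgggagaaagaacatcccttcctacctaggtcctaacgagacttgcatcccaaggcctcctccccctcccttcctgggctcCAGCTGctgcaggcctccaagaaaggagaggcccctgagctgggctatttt

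Myl1 promoter, chr1:66945057-66945306, minus strand: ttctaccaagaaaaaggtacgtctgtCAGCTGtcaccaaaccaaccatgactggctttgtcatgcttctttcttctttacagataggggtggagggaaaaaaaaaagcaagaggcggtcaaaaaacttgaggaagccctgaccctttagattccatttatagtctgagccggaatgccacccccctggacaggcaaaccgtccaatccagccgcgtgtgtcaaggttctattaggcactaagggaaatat

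Myl9 promoter, chr2:156775214-156775463, plus strand: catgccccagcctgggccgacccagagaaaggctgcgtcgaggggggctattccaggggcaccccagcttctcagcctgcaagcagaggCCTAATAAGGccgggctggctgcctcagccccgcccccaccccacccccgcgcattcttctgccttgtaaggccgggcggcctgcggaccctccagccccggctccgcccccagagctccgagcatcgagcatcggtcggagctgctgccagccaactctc

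The E-box began 51 bases before the start in Mylpf and 224 bases before it in Myl1, and Myl4 had none. E-boxes also occurred in promoters of Myl6, Myl6b and Myl12a, and in 66.2% of 32851 promoters searched on both strands. A CArG box lay 161 bases before the start of Myl9 and 50 bases before one start of Myl6, and in 1.47% of all promoters. A MEF2 site was in none of the members' promoters and in 2.92% of all. A match describes only these letters in this window. A guanine-rich stretch that could form a G-quadruplex was sought (4 runs of at least 3 G, 1 to 7 bases apart, on the sense strand). It occurred in transcripts of 2 of the 10 members, Myl4 and Myl6, and of 26.4% of 10622 rows with a protein-coding transcript. For members all annotated transcripts were searched, for all rows only protein-coding ones, so the shares are not measured alike. No transcript of Myl1 or Mylpf, the genes with a pull-down peak, held one. The search covered annotated transcripts, not the mostly intronic bins of the peaks.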

How the data were processed

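RNA-seq was analysed in 4 samples and pull-down RNA in 2 peak lists, of 7 samples in all. Groups came from the labels. The deposited RPKM values were made by the authors, who removed rRNA, tRNA and mitochondrial reads, aligned with TopHat2 to GRCm38, counted strand-specific libraries with htseq-count in intersection-strict mode, removed genes with low CPM, normalized by TMM and calculated RPKM with edgeR. The authors called peaks with Piranha on reads without duplicates or multiple alignments, and each deposited peak has a p-value. The methods name calls with the input as covariate for both pull-downs, and another call of lnc-SMaRT against LacZ. The deposited lnc-SMaRT list does not state which of its calls it holds.

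The 11086 genes whose mean RPKM reached 0.5 were fitted on the scale of log2(RPKM + 0.1) by limma (version 3.58.1, R 4.3.3, eBayes with a trended prior). P-values were adjusted over all of them by Benjamini-Hochberg, at a threshold of 0.05. Fold changes on this scale understate the change of weakly expressed genes. The script was tested on simulated data. P-values rest on 2 samples per group and on a variance that eBayes moderates with the values of the other genes. The RPKM values of all 11642 rows were multiples of the value of 1 read, whole to within 0.001 reads, so reads were recovered (effective library sizes 12654120, 14132628, 11291255 and 14312935). They are lower limits where the gene length did not fix a common factor, which it did for 5913 rows. Counting errors cover counting only. Sequences came from GRCm38 and RefSeq, gene models from GENCODE M21. Peaks were assigned to exons on the same strand by an overlap of at least 1 base.

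Members and lists were chosen with earlier results of these data known. All 10 members were named; of each list, the genes past the threshold and the 2 most abundant; and 3 nearest profiles of Mylpf and Myl9. Alternatives were pseudocounts, filters, quantile normalization, no trend, voom, a GC correction (loess, span 0.3), replicate blocks, each sample left out, and other peak overlaps. Crossed pairs and principal transcript lengths were added after the data were seen. Replicate differences of the groups had a correlation of -0.36 across genes. These differences also followed GC content, with Spearman's correlations of 0.35 in si-SCR and -0.85 in si-SMaRT. The correlation across genes therefore cannot show whether replicate numbers pair the samples. The main fit did not pair them.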

Additional observations from a re-analysis of the deposited data

How the results depend on the processing

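The number of genes called was 56, against 37 after quantile normalization, 103 with voom and 527 with the GC trend removed. With the replicate block it was 96, with the replicate block and the GC trend removed 110, and with the crossed pairing 487. Leaving out a sample gave 24 to 2908 genes, 2908 without si-SMaRT 1, 941 without si-SMaRT 2, 24 without si-SCR 1 and 30 without si-SCR 2. The remaining single sample was then assumed to vary like the other group. The number of members called was 0, against 1 with voom, 2 with the GC trend removed and 3 with the crossed pairing, and 0 to 5 when a sample was left out. It stayed 0 under the replicate block, with and without the GC trend removed. The data cannot show whether replicate numbers pair the samples.

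Of the phosphorylation list, 1 gene was called with the GC trend removed and 0 to 7 when a sample was left out. Of the sarcomeric heavy chains these counts were 1 with the crossed pairing and 0 to 2, and of the non-muscle heavy chains 0 to 1. The median log2 fold change of the sarcomeric members was -0.69 after quantile normalization. That of the non-sarcomeric members was -0.12 at a mean RPKM of at least 5, where Mylk and Mylk2 were not tested, 0.014 after quantile normalization, -0.11 with the GC trend removed, with or without the block, and -0.43 to -0.054 when a sample was left out. Myl9 changed sign after quantile normalization (0.14), with the GC trend removed (0.053, also with the block) and without si-SMaRT 2. When a sample was left out, it lay between -0.32 and 0.086, and Myl12a between -0.032, without si-SMaRT 2, and 0.19. Per kilobase of principal transcript, the si-SMaRT shares were 34.0% for Myl1, 30.3% for Myl4, 34.2% for Myl6, 1.46% for Myl6b, 79.9% for Mylpf, 10.6% for Myl9 and 8.86% for Myl12a. The number of peaks on members was 0 with an overlap of at least 50% of the peak and 0 at a p under 0.001. The cause of these shifts was not tested. Depth bears most on Mylk and Mylk2, with 66 to 190 reads per sample.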
